A study of Rattus norvegicus with 4 samples.

Results

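The 315 H1T2 peaks of rat chromosome 19 were described here, out of 11570 peaks in the deposited list, taken by the exact chromosome name and without contigs. Chromosome 19 was selected on a measured value: among the 20 autosomes it had the highest number of peaks per Mb of this same list. Its density is therefore given as a description and was not tested, and the same holds for the other values of these peaks, which come from the same comparison of IP with input. The list was made from chromatin of testes of Rattus norvegicus aged 35 to 50 days, labelled as round and elongating spermatids, with 2 samples immunoprecipitated with an antibody against H1T2 and 2 input samples taken without an antibody. The header of the list and the methods of the study name merged files of each kind, although a caption of the study calls the list peaks shared by both replicates. The list has 1 value per peak, so no spread between replicates could be computed. No marker of cell type is part of a peak list, so the labelled stages could not be checked here.

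H1T2 is a linker histone found only in male germ cells, where it appears in round spermatids and is gone from mature sperm. Linker histones sit at the entry and exit of nucleosomal DNA and help to fold the chromatin fibre. In spermatids most histones are exchanged for transition proteins and then protamines, and H1T2 lies at one pole of the nucleus, beneath the acrosome, while this exchange begins. Male mice without it have poorly condensed sperm heads and impaired fertility.

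For 1 region of chromosome 19 the study also designed primers, which it lists for ChIP-PCR at the Ctcf gene. Ctcf encodes a zinc-finger protein that organises chromatin loops. The pair is shown because it is the sequence in these data that ties a single peak of chromosome 19 to a second assay, whose values were not used. Each primer has 27 nt.
Ctcf_F: cttaaaaacatagacgtccacagtgat
Ctcf_R: ttttggtaatcttcctcccaagaaaag
Neither primer matched as a whole within the 300 nt around the Ctcf start site in the RefSeq promoter table, which is of the build GRCr8 and not of rn6, the build of the peaks. The primers could not be mapped to rn6, so their link to a peak rests on the region that the study gives. The peak of that region was chr19:37599804-37600003 (rn6, as are all positions given here), with the minimum length of 200 bp. Its pileup, the number of IP tags over the summit, was 18 tags. Its local background, the number expected there from the scaled input, was 4.34 tags, and its fold enrichment, the ratio of these values, was 4.15 (95% exact Poisson interval 1.90 to 7.88). By p-value it ranked 273 of the 315 peaks of the chromosome and 10118 in the whole list, so the peak with primers was among the weaker ones. Every pileup in the list was an even number, so all intervals given for single peaks take 2 tags as 1 fragment. They hold the background fixed and cover counting error only.

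Over the 62.1 Mb up to the last peak of chromosome 19, the density was 5.07 peaks per Mb, with a 95% exact Poisson interval of 4.53 to 5.66. The other 19 autosomes together had 10248 peaks over 2555 Mb, or 4.01 per Mb, and ranged from 3.44 on chromosome 8 to 4.94 on chromosome 1. The ratio of chromosome 19 to the others was 1.26 (1.13 to 1.41). The intervals of chromosome 19 and of chromosome 1, the next in order, overlapped, so the first rank was not separated from the second by counting error. Chromosome 19 held 2.98% of the autosomal peaks on 2.37% of the autosomal span. Peaks lay in groups along the chromosome, so these intervals, which treat peaks as independent, are too narrow.

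**Figure D1:**
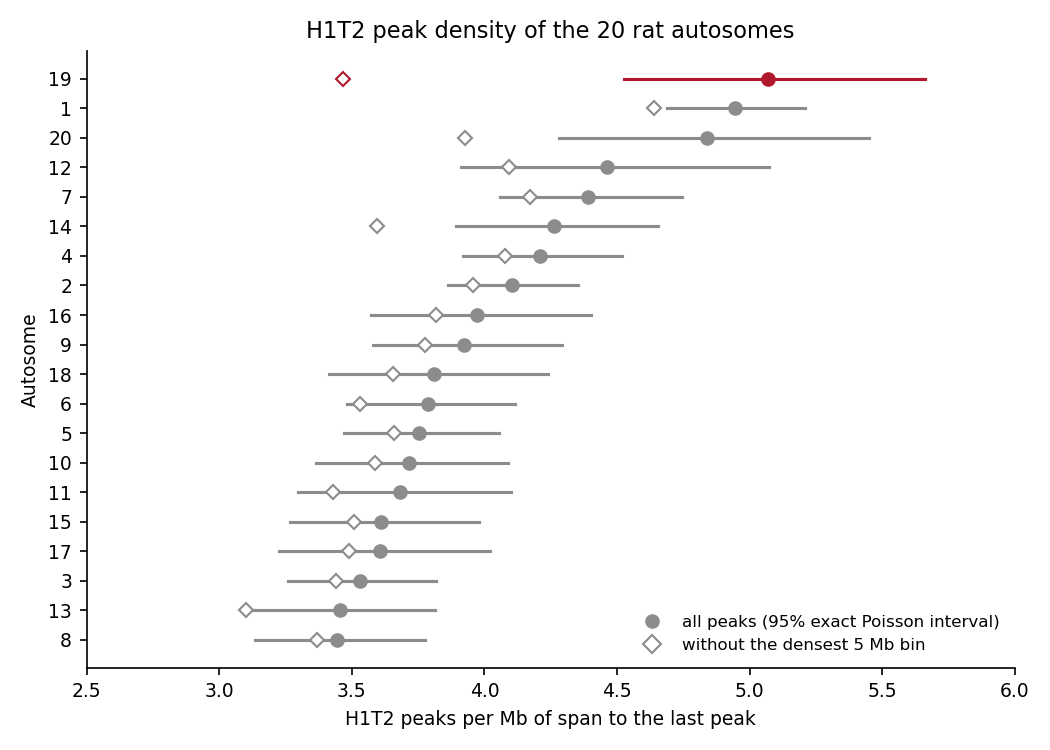
H1T2 peaks per Mb of span for the 20 autosomes (filled circles, lines are 95% exact Poisson intervals), with the density left when the 5 Mb bin with most peaks of each autosome is removed (open diamonds). Chromosome 19 (red) falls from 5.07 to 3.47 peaks per Mb, from rank 1 to rank 16.

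The name high-density did not hold along the chromosome, because the surplus lay in 1 bin. In fixed bins of 5 Mb, counted from the start of the chromosome, bins 1 to 5 held 20, 30, 17, 13 and 10 peaks, and bin 6, from 25 to 30 Mb, held 117. Bins 7 to 12 held 12, 30, 14, 10, 11 and 18 peaks, and the last bin, of which 2.13 Mb was covered, held 13. Bin 6 thus contained 37.1% of the peaks of the chromosome (95% exact binomial interval 31.8 to 42.7%) at 23.4 peaks per Mb. The share of the densest bin depended on these choices. It was 27.9% with bins moved by 2.5 Mb and 17.8% with bins of 2 Mb. For folds of at least 5 it was 24.6%, and with neighbours within 100 kb counted once it was 12.3%. With this size and placement of bins, bin 6 held more peaks than any other of the 515 full autosomal bins. The next were a bin of chromosome 1 with 109 peaks and a bin of chromosome 14 with 95. In bins of 1 Mb, the densest bin of chromosome 19 had 39 peaks and was at rank 3 among the autosomes. On the other autosomes the densest bin took between 5.26% of the peaks (chromosome 3) and 26.1% (chromosome 20), with a median of 8.28%. These shares also depend on length, since a longer chromosome has more bins. The autosomes nearest in span to chromosome 19 were chromosome 20, with 56.2 Mb, and chromosome 12, with 52.6 Mb and a share of 17.0%.

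The median bin of chromosome 19 held fewer peaks than that of the other autosomes, but was not separated from it. The direction also did not hold with every placement of the bins. Its 12 full bins had a median of 15.5 peaks (quartiles 11.8 and 22.5), against 19 peaks (quartiles 14 and 23) in the 503 full bins of the other autosomes. Of the 12 bins, 8 lay below the median of the others and 4 above it, and 5 lay below the lower quartile of the others. The ratio of the median bins was 0.816, with an interval of 0.579 to 1.58 that includes 1, and with bins that began 2.5 Mb later it was 1.11. Outside bin 6 the chromosome had 198 peaks, or 3.47 per Mb (3.0 to 3.98), which was rank 18 of the 20 autosomes when the others were left whole. With the densest bin of every autosome removed, the rank was 16 and the ratio to the others 0.913 (0.789 to 1.05).

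**Figure D2:**
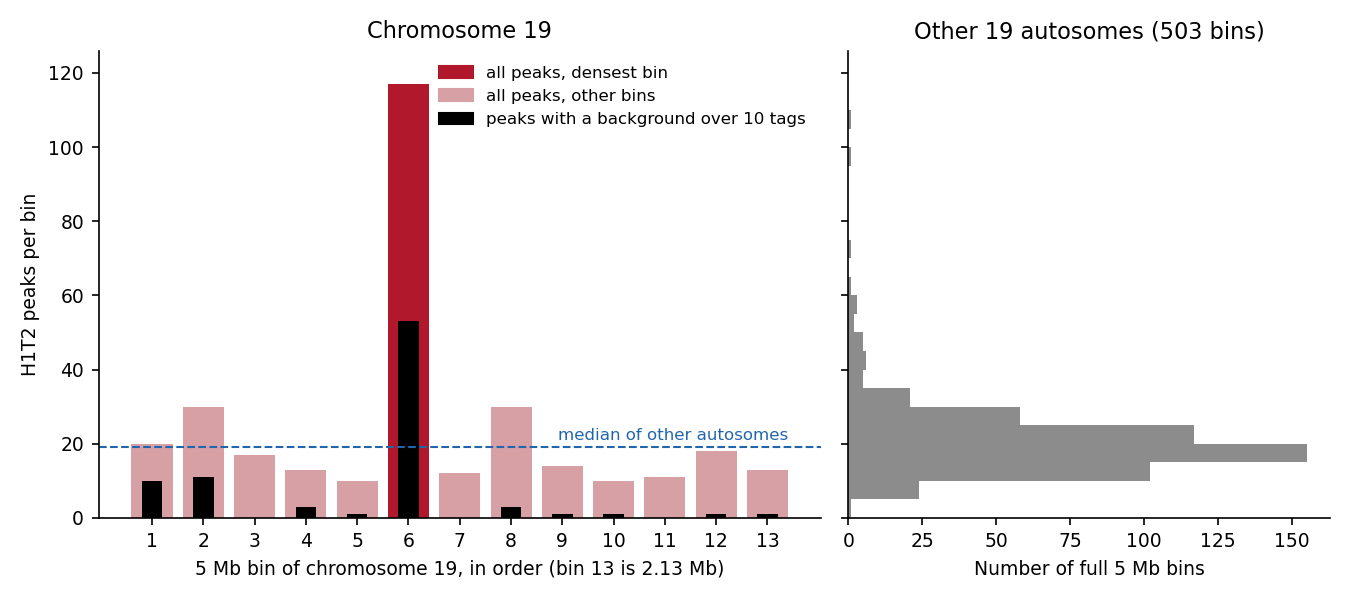
Left, H1T2 peaks in each 5 Mb bin of chromosome 19 in order, with the peaks of a local background over 10 tags in black. Right, the number of full bins of the other autosomes at each count. Bin 6 holds 117 peaks, 53 of them with a background over 10 tags, and 8 of the 12 full bins lie below the dashed median of 19 peaks.

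Within bin 6 the dense stretch was shorter than the bin. It ran from the first to the last of the 6 groups of at least 5 peaks there, at chr19:26061793-29359238, a length of 3.30 Mb or 5.31% of the span. It held 108 peaks, 34.3% of those on the chromosome, at 32.8 peaks per Mb (26.9 to 39.5). The other 207 peaks of the chromosome lay at 3.52 per Mb (3.06 to 4.03), and only 9 of them were in the rest of bin 6. In steps of 1 Mb, the counts from 26 to 30 Mb were 26, 30, 39 and 16 peaks, where the median of the chromosome and of the other autosomes was 3. Beyond this stretch, the bins of 1 Mb with more than 10 peaks were those from 0 to 1 Mb and from 5 to 6 Mb, with 13 peaks each, and that from 36 to 37 Mb, with 18. These 7 bins held 155 peaks (49.2%), and 77 of 2545 bins of the other autosomes passed the same count and held 12.3% of their peaks. Bins of 1 Mb without any peak made up 6.45% on chromosome 19 and 5.70% elsewhere.

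Peaks of chromosome 19 stood close together. The median gap between neighbours was 56.7 kb (quartiles 6.04 and 248 kb), against 134 kb (30.3 and 349 kb) on the other autosomes and 10.5 kb inside bin 6. Gaps of at most 10 kb made up 29.3% on chromosome 19, 17.7% on the others and 49.1% in bin 6. With neighbours within 100 kb joined, the 315 peaks fell into 130 positions, of which 84 were single peaks. The 9 groups of at least 5 peaks held 138 peaks, or 43.8%. Counted as positions, the chromosome had 2.09 per Mb and the others 2.26, so at this distance the surplus was one of peaks per position and not of positions. With neighbours joined only within 10 kb, the values were 3.59 and 3.30.

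The groups differed in how densely they were packed. The group with most peaks, 35 of them, spanned 397 kb at chr19:27737680-28135133, and its median background was 11.9 tags. The group with 21 peaks, at chr19:26061793-26622246, had a median background of 11.6 tags, with folds of 4.84 in the median. A group of 15 peaks at chr19:28856716-28996358 spanned 140 kb. Outside bin 6, the 16 peaks at chr19:35955896-36264576 had the lower background of 5.00 tags and a median fold of 5.20, and the 12 peaks at chr19:74133-395325 had 21.1 tags of background and a median fold of 3.0. Groups of many peaks were therefore not of 1 kind in background.

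Among the groups of at least 5 peaks, the most compact group held 10 peaks within 17.7 kb, at chr19:5819402-5837122. The gene nearest to its peaks with an annotation by the authors was Cdh8, which encodes a cadherin of cell adhesion. From the first peak to the last, the pileups were 86, 258, 108, 68, 46, 94, 46, 76, 132 and 206 tags. The fold enrichments in the same order were 2.2, 4.01, 4.93, 3.19, 3.13, 3.22, 2.62, 2.24, 6.38 and 4.93. The pileup was thus highest at the second and the last peak and lowest at the fifth and the seventh, the lowest fold was that of the first peak, and the peaks together covered 34.5% of its length. The background was high throughout, from 14.7 to 64.3 tags across the 10 peaks.

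Peak length did not set chromosome 19 apart. The median length was 269 bp (quartiles 218 and 348, range 200 to 1528 bp), against 266 bp (211 and 358) on the other autosomes. The minimum length of 200 bp was reached by 48 peaks (15.2%), against 19% elsewhere, and 25 peaks (7.94%) had 500 bp or more, against 9.61%. Inside bin 6 the median was 270 bp. Length and background were weakly related over the 315 peaks, which share the same IP and input libraries (Spearman rho 0.295, n = 315).

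With all peaks counted, pileup and background were both higher on chromosome 19, but the ratio of median backgrounds went from 1.18 to 0.974 when neighbours within 10 kb were counted once and to 0.991 for folds of at least 5. The median pileup was 24 tags (quartiles 16 and 42, range 10 to 332), against 22 tags (16 and 30) elsewhere, and the lower quartiles were alike while the upper quartile was not. The median background was 4.14 tags (quartiles 2.11 and 10.7), against 3.51 tags (2.07 and 5.79), and no other autosome had a median above 3.93 tags. The median fold enrichment was 5.53 (quartiles 3.66 and 7.52), the lowest of the 20 autosomes, whose other medians ran from 5.80 on chromosome 2 to 7.26 on chromosome 12. The IP tags above background were 18.9 in the median, against 17.2, and the median -log10 p-value was 10.4 on chromosome 19 and on the other autosomes. With all peaks counted, the fold was thus lower at a similar p-value, with more tags in both the IP and the input. With neighbours within 100 kb counted once, pileup and background were lower than on the other autosomes, with ratios of 0.909 and 0.800. The fold was then no longer lower, at a ratio of 1.05 with an interval of 0.933 to 1.09 that includes 1. For folds of at least 5, the ratio of median folds was 1 and that of pileups 0.9.

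**Figure D3:**
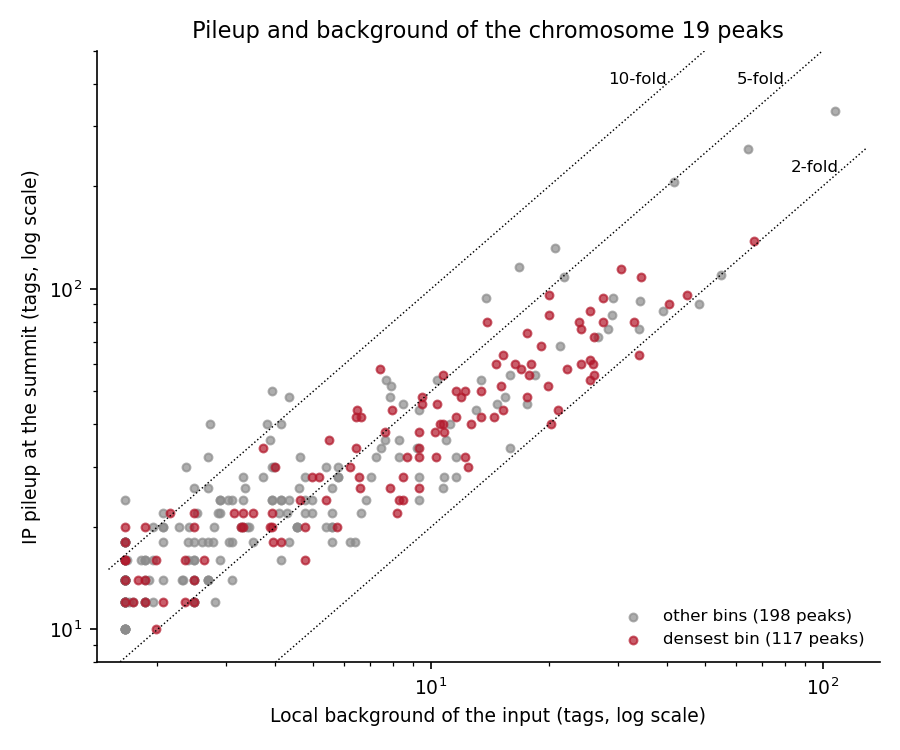
Pileup of the IP against the local background of the input for the 315 peaks of chromosome 19, both in tags on log scales, with bin 6 in red and lines of equal fold enrichment. Peaks of bin 6 reach from the genome background to 66.7 tags, and those with a background over 10 tags fall mostly between 2-fold and 5-fold.

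Bin 6 contributed most to these differences. There the median pileup was 38 tags, the median background 9.30 tags and the median fold enrichment 4.18. Outside it, the chromosome had a median pileup of 20 tags at a background of 3.04 tags, and the median fold was 6.15. Bin 1 was similar to bin 6 with 20 peaks, a median pileup of 48 tags, a background of 9.74 tags and a fold of 5.11. The other autosomes outside their own densest bins had 20 tags, 3.37 tags and 6.22. The median background of the rest of chromosome 19 was slightly lower than theirs, but not separated from it. The ratio was 0.900, with an interval of 0.796 to 1.15 that includes 1. Pileup and background rose together over all 315 peaks (Spearman rho 0.903, n = 315), over the 198 outside bin 6 (0.853, n = 198) and over the other autosomes (0.807, n = 10248). This relation is in part built in, since a peak over a high background needs a high pileup to enter the list.

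A background over 10 tags was found at 85 of the 315 peaks, or 27.0% (95% Wilson interval 22.4 to 32.1%), against 9.10% on the other autosomes. Among these, the share ran from 3.24% on chromosome 15 to 19.3% on chromosome 14. Of the 85 peaks, 53 lay in bin 6, 21 in bins 1 and 2, and 11 in the rest of the chromosome. Outside bin 6 the share was 16.2% (11.7 to 21.9%), still above that of every other autosome without its densest bin, of which chromosome 1 had the highest at 13.3%, a value inside that interval. This share rested on bins 1 and 2: in the remaining bins 11 of 148 peaks, or 7.43% (4.20 to 12.8%), had such a background. On the other autosomes outside their own densest bins it was 7.0%. The removal was uneven, since bins 1 and 2 were left out for holding such peaks, while each other autosome lost only its densest bin. The likeness of these shares is therefore no test of the remaining bins.

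Over the whole chromosome, the surplus of peaks was found among those over 10 tags. They numbered 1.37 per Mb (1.09 to 1.69) on chromosome 19 and 0.365 per Mb (0.342 to 0.389) on the others, a ratio of 3.75 (2.96 to 4.68), and the highest other autosome was chromosome 1 with 0.902. The peaks of up to 10 tags numbered 3.70 per Mb (3.24 to 4.21) and 3.65 per Mb (3.57 to 3.72), a ratio of 1.02 (0.887 to 1.16), which put chromosome 19 at rank 7. The class up to 10 tags held 230 of the 315 peaks, and these ratios describe a list by which chromosome 19 was chosen and are no test. Within bin 6, however, peaks up to 10 tags were also dense, with 64 peaks or 12.8 per Mb, and the rest of the chromosome had 2.91 per Mb. Peaks at the genome background of 1.65 tags, the lowest value possible, numbered 52 (16.5%, against 16.6% elsewhere). They were most common in bins 11 and 12, where they made up 20 of 29 peaks.

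**Figure D4:**
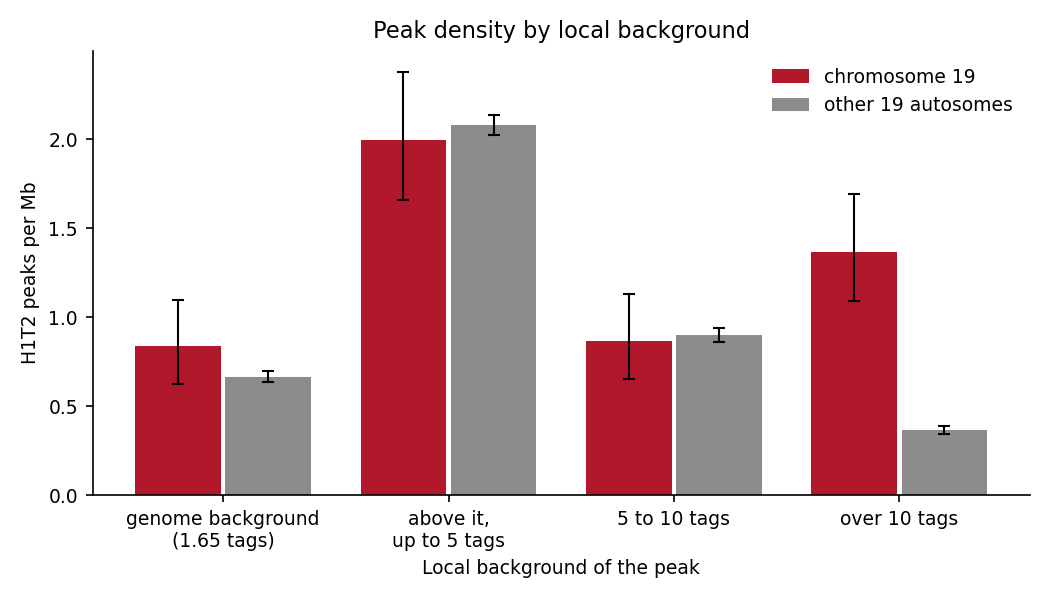
H1T2 peaks per Mb on chromosome 19 (red) and on the other 19 autosomes (grey) in 4 classes of local background, with 95% exact Poisson intervals. The intervals overlap in the classes up to 10 tags and are apart over 10 tags, at 1.37 and 0.365 peaks per Mb.

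The fold enrichment of chromosome 19 was equal to that of the others in the classes up to 5 tags and lower over 10 tags. At the genome background both medians were 8.47, and above it up to 5 tags both were 6.45. From 5 to 10 tags the medians were 4.32 on chromosome 19 and 4.46 elsewhere, and over 10 tags they were 3.15 and 3.50. In the last class the peaks of chromosome 19 were also shorter, with a median of 300 bp against 382 bp, and had a median pileup of 58 tags against 76. The lower fold of the chromosome as a whole thus went with a larger share of peaks over a high background and with a lower fold among those peaks. A fold enrichment under 3 was found at 42 peaks (13.3%, 10 to 17.5%), against 4.24% elsewhere. Of these 42, 35 had a background over 10 tags, and 25 lay in bin 6. What raised the background of these regions was not tested.

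**Figure D5:**
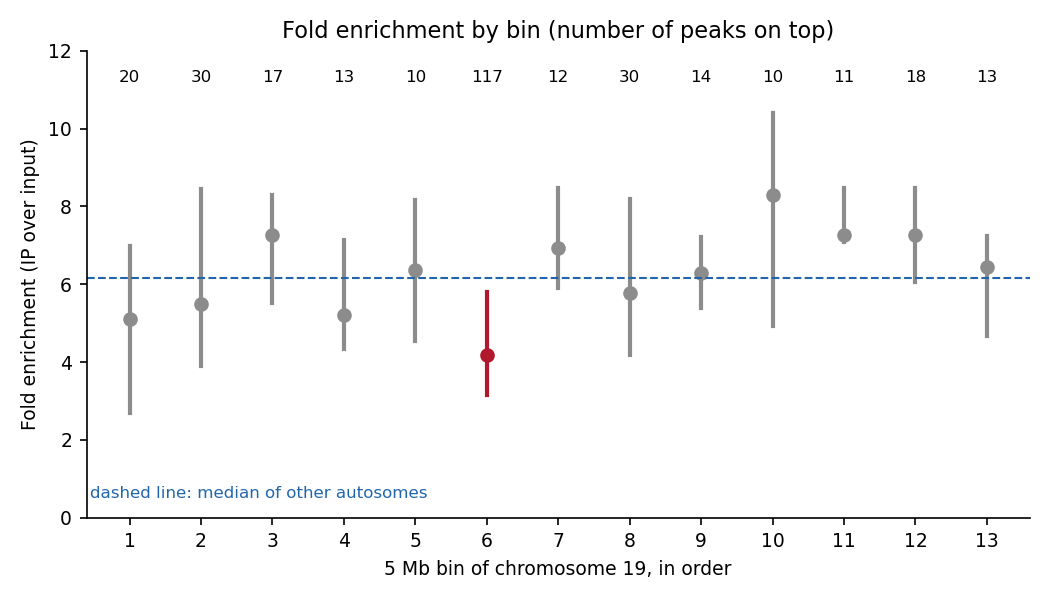
Median fold enrichment of IP over input (circles) with quartiles (lines) in the 5 Mb bins of chromosome 19 in order, with the number of peaks on top. Bin 6 has the lowest median, 4.18, and bins 1, 2, 4 and 8 also lie below the median of the other autosomes of 6.16.

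Other dense bins of the genome were not alike in this respect. The bin of chromosome 1 with 109 peaks had a median background of 60.3 tags and a median fold of 2.96, and that of chromosome 14 with 95 peaks had 31.2 tags and 4.21. The densest bin of chromosome 20, with 71 peaks, had only 4.02 tags and a fold of 5.36. With 9.30 tags, bin 6 of chromosome 19 lay between them, and its pileup of 38 tags was far below the 144 and 120 tags of the bins of chromosomes 1 and 14.

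The peaks leading by p-value lay mostly over a high background, and 5 of the first 10 had 500 bp or more. The smallest p-value was that of chr19:5821392-5822777, in the group near Cdh8, with 1386 bp, a pileup of 258 tags over 64.3 tags, a -log10 p-value of 73.6 and an enrichment of 4.01-fold (3.35 to 4.76). In the same group, chr19:5835882-5837122 had a -log10 p-value of 73.6 as well, at a fold of 4.93 (4.02 to 5.98), and it was annotated by the authors as a CpG island. The third was chr19:56337716-56339243, the longest peak of the chromosome, with 332 IP tags where 107.8 were expected, which is 3.08-fold (2.63 to 3.59). The nearest gene named for it was Gas8, which encodes a part of the dynein regulatory complex of cilia and flagella. In the 10 peaks leading by p-value, 9 had a background over 10 tags, so the leading p-values came from regions with many tags in both IP and input.

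Among the others of this list, chr19:5834871-5835424 had 132 tags, was enriched 6.38-fold (4.93 to 8.12) and was also annotated as a CpG island. The fifth, chr19:46756298-46756534, was different, with a length of only 237 bp, 116 tags over 16.7 tags, or 6.93-fold (5.26 to 8.96). It lay on a simple repeat of the unit GGTTAG, which is the repeat of vertebrate telomeres in another frame, inside the chromosome, and the nearest gene was Wwox, which encodes an oxidoreductase with WW domains.

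By fold enrichment the order was different. The repeats named for single peaks describe those peaks alone. The largest fold, 14.66 (8.95 to 22.6), was that of chr19:6117482-6117768, in an intron of Cdh8 on a LINE of the type L1_Rn, a retrotransposon, with 40 tags over 2.73 tags. It was followed by chr19:61946115-61946333, on a LINE of the type L1_Rat1 nearest to Itgb1, the gene of an integrin subunit, with 24 tags at the genome background and a fold of 14.51 (7.50 to 25.3). The third, chr19:16270599-16270901, lay on a satellite repeat nearest to Crnde, with 50 tags over 3.93 tags and a fold of 12.73 (8.24 to 18.8). The fourth, chr19:36139304-36139569, lay on an L1_Rn element nearest to the carboxylesterase gene Ces2g, in the group of 16 peaks, with 30 tags and a fold of 12.71 (7.11 to 21). The fifth, chr19:29525984-29526184, was in bin 6, with 20 tags at the genome background and a fold of 12.09 (5.80 to 22.2). The intervals of these 5 peaks overlapped, so their order was not fixed by the counts.

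None of the 14 peaks with the largest folds, counting a tie at the tenth place, had a background over 10 tags, and the highest among them was 4.34 tags. Of these 14 peaks, 2 were in bin 6. On the other autosomes 74 peaks (0.722%) had a fold above the largest of chromosome 19, up to 110.07. As this cut is the maximum of chromosome 19 itself, the count cannot show whether high folds were rarer there.

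Among the 5 highest backgrounds, 2 were those of the peak nearest to Gas8 and of the leading peak near Cdh8, and the other 3 came with low folds. The highest of these was that of chr19:29277615-29278124 in bin 6, with 66.7 tags, at a fold of only 2.07 (1.61 to 2.62). The peaks chr19:319725-319947 and chr19:247391-247660, both in bin 1, had 55.0 and 48.4 tags and folds of 2.0 (1.51 to 2.60) and 1.86 (1.36 to 2.49). The last value was the lowest fold of the chromosome. In the same group near its start, chr19:329388-329710, nearest to the carboxylesterase gene Ces2a, reached a fold of 6.79 (4.99 to 9.03) with 94 tags over 13.8 tags, so neighbouring peaks differed in fold by more than their counting error.

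The strongest peak of bin 6 by p-value was chr19:28127235-28128212, near the end of the group of 35 peaks. It had 978 bp, 96 tags over 20.0 tags, a -log10 p-value of 34.3 and an enrichment of 4.79-fold (3.53 to 6.35). The gene named nearest to it was LOC363337. Although bin 6 held the most peaks, this peak was only ninth on the chromosome, behind peaks of bins 1, 2, 4, 10 and 12. Of the 985 bp peak chr19:5830297-5831281 near Cdh8, the fold was 3.22 (2.37 to 4.28), which completed the 5 longest peaks.

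The leading peak of bin 13, chr19:62113918-62114266, had 54 tags over 7.65 tags and a fold of 7.06 (4.65 to 10.3), on an L1_Rn element nearest to Itgb1. The leading peaks of bins 5, 7, 9 and 11 were weaker than it by p-value and had 18, 26, 20 and 18 tags, in that order. Their folds were 7.25 (3.32 to 13.8), 7.76 (4.13 to 13.3), 10.29 (4.93 to 18.9) and 10.89 (4.98 to 20.7). In these 4 bins the strongest peak thus had fewer tags than the median peak of bin 6, and a higher fold. For bins 5 and 7 the interval includes the median fold of bin 6, 4.18.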

How the data were processed

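The authors' processing notes name Bowtie2, SAMtools and MACS2, and the deposited header gives MACS 2.0.9, broad regions, tags extended to 200 bp and a cutoff of 5e-05 on p. The study's methods and the header both name merged files, the methods give another version and cutoff, and a caption calls the list peaks shared by replicates. The header was followed. Of 34071564 IP tags 16203958 (47.6%) were kept by the authors with at most 2 at a position, and of 83508652 input tags 78371120 (93.8%) with at most 3. Depth per sample is unknown. The deposited signal is the pileup at the summit (IP tags). Deposited fold enrichments are the ratio of pileup to local background, the largest of the genome value and of input estimates over 1000 and 10000 bp. The deposited -log10 p-value is a Poisson value, recovered here within 0.1 for 99.8% of peaks. Peak length is as deposited by the authors.

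Background was computed as pileup divided by fold. Peaks were binned by midpoint, and the last bin was scaled to its covered length. Chromosome length was the span to the last peak, as no rn6 genome was supplied. Counts have exact Poisson intervals, rate ratios conditional exact intervals and medians order-statistic intervals. Shares have Wilson intervals, except the share of the densest bin, which has an exact binomial interval. All are at 95%, with 2 tags as 1 fragment for single folds. No test was made, because the list has no values per sample. The scripts were tested on simulated data. Members, bins and lists were chosen with earlier results of these data known, and the limits of 10 tags, 5 tags, 3-fold and 500 bp, the 3.30 Mb stretch, the 10 peaks near Cdh8, bins 1 and 2 and the lists of 10 peaks after values were seen. Peaks described singly were the 5 leading by p-value, fold, length and background, the leading one of each bin, and that at Ctcf. Among them, 1 peak that leads its bin is not described. Genes and repeats are named from the authors' annotation where it held the peak, and 9 of 10 gene names matched chromosome 19 in the RefSeq table of GRCr8. Alternatives were filters, merging of neighbours, other bins and other sets of chromosomes. ChIP-PCR, mass spectrometry and annotation classes were not analysed. Python 3.11.15, numpy 2.4.6, pandas 2.3.3, scipy 1.17.1 and matplotlib 3.10.9 were used.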

Additional observations from a re-analysis of the deposited data

How the results depend on the processing

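Of 74 values under alternatives, 39 were counted as the same, 26 as moved and 9 as reversed. Among them are 10 density ranks, which have no interval, and of which 4 stayed at rank 1 and 6 moved. The other values counted as the same stayed within the main interval. Pileup ratios below 1 were counted as moved and not as reversed, so the 9 leave out the turns of direction in pileup. The ratios are of chromosome 19 to the other autosomes, and the ratios of median lengths and of median bins stayed within their intervals under every alternative run, although the latter went from 0.816 to 1.11 with bins moved by 2.5 Mb. With peaks within 100 kb counted once, the density ratio was 0.926 (rank 18), the background ratio 0.800, the fold ratio 1.05, the pileup ratio 0.909 and the share of the densest bin 12.3%. Within 10 kb, these were 1.09 (rank 5) for density, 0.974 for background, 0.988 for fold and 26.9% for the share. Without the densest bin of chromosome 19, the density ratio was 0.864 (rank 18), the background ratio 0.864, the fold ratio 0.998 and the pileup ratio 0.909. With every autosome without its own densest bin, an alternative chosen after seeing the data, they were 0.913 (rank 16) for density, 0.900 for background and 0.988 for fold. At a fold enrichment of at least 5, the density ratio was 1.04 (rank 7), the background ratio 0.991, the fold ratio 1, the pileup ratio 0.9 and the share 24.6%. At a pileup of at least 20 tags, the fold ratio was 0.780, the pileup ratio 1.21, the background ratio 1.56 and the share 47.1%. With peaks of -log10 p from 10 upward, the rank was 2 and the fold ratio 0.818. Without chromosomes 1 and 20, the pileup ratio was 1.2. The share of the densest bin was 17.8% with bins of 2 Mb and 27.9% with bins moved by 2.5 Mb. The merging and the removal of a bin take away the dense peaks by construction, and for the filters the cause was not tested. An rn6 chromosome length could not be used, as none was supplied. No paired analysis was possible because the list has no values per sample, and for the same reason no replicate could be left out. The counts limit single folds to intervals such as 1.90 to 7.88 at 18 tags, taken as 9 fragments.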

Other observations

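The summit of the chromosome 19 peaks lay at a median of 44.5% of the peak length from the start, against 43.7% on the other autosomes. Pileups were even numbers at every peak, with 0 odd values. If each 2 tags were taken as 1 fragment, 226 of the 315 peaks (71.7%) had a Poisson p-value of at most 1e-05, against 69.0% on the other autosomes.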
